A study of Mus musculus with 6 samples.

Results

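The genes of the proteasome and its activators were examined in liver RNA of male C57BL/6 mice, in 3 libraries from chow that contained polyethylene microplastic (PE-MP) and 3 libraries from normal chow, all after 71 weeks. The labels give no dose or particle size, and no batch, cage or litter. They number the libraries as replicates of each chow without saying that each came from a different animal, so that p-values measure the spread between libraries. The members were the rows of the count table whose symbol consists of Psm, a letter from a to g, a number and at most 1 further letter. There were 50 such rows of 56674, for 49 symbols, because Psmd5 stood on 2 rows. Of these, 48 passed the expression filter and entered the test. The genes Psmb11, with 0 counts in all 6 libraries, and the second Psmd5 row, with 0 to 12 counts, did not. The rarest rows that passed were Psma8, with 12 to 77 counts, and Psme2b, with 54 to 119.

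The proteasome is the protease that degrades ubiquitin-tagged proteins. Its core is a barrel of outer alpha and inner beta rings, and the active sites sit inside on the beta subunits Psmb5, Psmb6 and Psmb7. A regulatory particle, made of a ring of ATPases (Psmc genes) and of non-ATPase subunits (Psmd genes), binds ubiquitin chains, unfolds the substrate and feeds it into the barrel. Interferon-gamma induces the catalytic subunits Psmb8, Psmb9 and Psmb10, which replace Psmb5, Psmb6 and Psmb7 in the immunoproteasome, and the activator subunits Psme1 and Psme2. The peptides cut by these forms are a source of those shown on MHC class I. In hepatocytes, the constitutive core is the main form under resting conditions, while leukocytes carry much immunoproteasome.

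The libraries held 68357478 to 112566641 counts. The 10 hepatocyte markers, among them Alb and Cps1, summed to 88842 to 97742 CPM under PE-MP chow and 79226 to 99323 CPM under normal chow, so the defining markers of the labelled tissue were abundant. Mitochondrially encoded genes took 9.71% to 10.1% of the counts under PE-MP chow and 14.9% to 16.4% under normal chow. The scaling factors that offset such differences in make-up (TMM factors) were 1.07 to 1.17 under PE-MP chow and 0.879 to 0.923 under normal chow. Levels are CPM, the counts of a gene relative to the library total, scaled by these factors, unless stated otherwise. Without them, the median log2 fold change of all tested genes was 0.32, against 0.018 with them, so the scale sets the sign of small differences. Normal chow library 2 stood apart: the ribosomal RNA row Rn18s-rs5 took 11.2% of its counts, against 0.334% to 5.98% in the other 5 libraries.

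Under PE-MP chow, proteasome transcripts lay mostly a little below their level under normal chow with scaling factors, and mostly above it without them. The log2 fold change, PE-MP chow over normal chow, was negative for 39 of the 48 tested members, or 81.2%, against 48.3% of all 18043 tested genes. Without scaling factors it was negative for 18 of the 48, against 23.6% of all tested genes, and edgeR then called 0 members and 0.0554% of all genes as higher. The median was -0.21 over the members and 0.018 over all tested genes. The class medians were -0.57 for the immunoproteasome, -0.52 for the 2 tested tissue-restricted genes, -0.37 for the core beta subunits, -0.19 for the 3 other activators and inhibitor, and then in rising order those of the core alpha subunits (-0.17), the assembly factors (-0.15), the non-ATPase subunits (-0.14) and the ATPases (-0.046). These medians are descriptions, with no test of the differences between classes.

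No member passed an adjusted p of 0.05 in edgeR's quasi-likelihood test, either as lower (0% of all 18043 genes passed) or as higher (0.00554%, which is 1 gene). At an unadjusted p under 0.05, 12 members were lower, or 25.0%, against 8.82% of all tested genes, and 0 were higher, against 9.10%. Without scaling factors 0 members were lower at that p, against 2.18% of all tested genes, and 6 were higher, against 25.2%. With 1 PE-MP library left out, the members lower at that p numbered 7, 6 and 8 without library 1, 2 and 3. With 1 normal chow library left out, they numbered 7, 23 and 4 without library 1, 2 and 3. Members higher at that p numbered 2 without normal chow library 2 and 0 in each other such fit. The share of all tested genes at that p was not taken for these fits, so their counts of members stand without a background. All 3 PE-MP libraries lay below all 3 normal chow libraries for 17 members, or 35.4%, against 11.8% of all tested genes, and above them for 0 members, against 14.2%. Without scaling factors they lay below for 1 member, Psmb8, against 2.65% of all tested genes, and above for 9 members, against 34.6%. Overlap of single genes is described on the scaled levels, so it holds without scaling factors for Psmb8 alone among the members with lower values. DESeq2, which tested 49 members, called 2 lower, Psme1 (adjusted p = 0.0135) and Psmb8 (adjusted p = 0.0254), and 0 higher. It called 1.75% of 30801 genes with any count lower and 1.80% higher. Those genes include ones that the expression filter of edgeR left out, and ones without an adjusted p were taken as not called. The shares are thus not those over the 18043 filtered genes. Limma-voom called 0 members in either direction, where it called 0.0499% of all genes lower and 0.0333% higher. At an unadjusted p under 0.05 it placed 12 members lower and 0 higher, with no share of all genes taken at that p. Without normal chow library 2, edgeR called 5 members lower, which were Psme1, Psmb3, Psmb5, Psmb4 and Psmb1, against 3.27% of all genes, and 0 higher, against 2.38%. For 38 of the 48 members the 95% interval of the log2 fold change lay wholly within 1 unit of 0, against 49.7% of all tested genes.

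**Figure D1:**
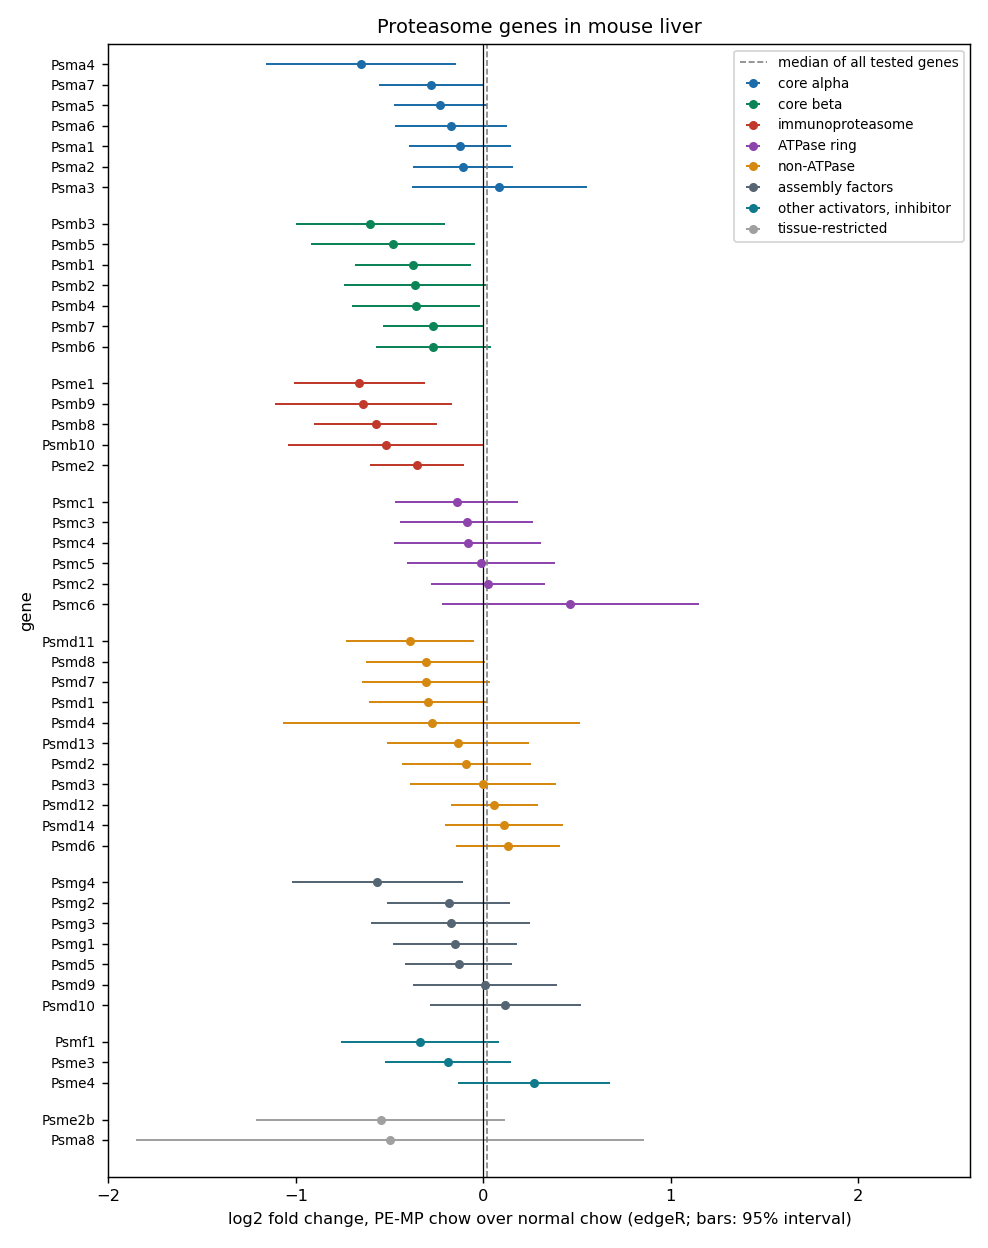
Log2 fold change of each tested proteasome gene, PE-MP chow over normal chow, by class, with its 95% interval from edgeR (n = 3 libraries per chow); the dashed line marks the median of all tested genes at 0.018. All core beta and immunoproteasome genes lie left of 0, while the ATPase ring is spread around it; without scaling factors Psmb6 and Psmb7 fall on the right of 0.

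The beta subunits form the inner rings, and 3 of them carry the active sites. All 7 had a negative log2 fold change, from -0.60 to -0.27, and 5 of 7 remained negative without scaling factors, where Psmb6 and Psmb7 stood at 0.031 and 0.032. Psmb5, which holds the chymotrypsin-like site, had 71.0, 70.8 and 61.5 CPM in PE-MP libraries 1, 2 and 3, against 103, 70.6 and 110.0 CPM in normal chow libraries 1, 2 and 3 (log2 fold change -0.48 ± 0.18, SE; edgeR adjusted p = 0.246). The chows overlapped by a narrow margin, because normal chow library 2 sat at the PE-MP level while the other normal chow libraries stood well above it. Psmb6, which holds the caspase-like site, had 110.1, 95.5 and 93.3 CPM in the PE-MP libraries, against 124, 106 and 129.6 CPM in the normal chow libraries (log2 fold change -0.27 ± 0.13, SE; edgeR adjusted p = 0.327). Here PE-MP library 1 was above normal chow library 2, so the chows overlapped. Psmb7, which holds the trypsin-like site, had 96.5, 95.6 and 88.6 CPM in the PE-MP libraries, against 107, 108 and 123 CPM in the normal chow libraries (log2 fold change -0.27 ± 0.11, SE; edgeR adjusted p = 0.277). All 3 PE-MP libraries were below all 3 normal chow libraries for this gene. In the GENCODE M21 annotation, 11.8% of the exon bases of Psmb7 overlap Nek6 on the opposite strand, and the strand setting of the counting is not given in the sources used here.

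The non-catalytic beta subunits complete the ring. Psmb3 had the most negative value of the core beta genes, with 77.6, 66.3 and 67.8 CPM in PE-MP libraries 1, 2 and 3, against 110.5, 84.9 and 126 CPM in normal chow libraries 1, 2 and 3 (log2 fold change -0.60 ± 0.17, SE; edgeR adjusted p = 0.170). The 2 chows did not overlap, and the PE-MP mean was 0.659 times the normal chow level. Psmb1 had 104, 104 and 107 CPM in the PE-MP libraries, against 138, 117 and 154 CPM in the normal chow libraries (log2 fold change -0.38 ± 0.13, SE; edgeR adjusted p = 0.218). The PE-MP libraries lay close together, while the normal chow libraries were widely spread above them. Psmb4 (log2 fold change -0.36) also showed no overlap, and Psmb2 (-0.37) did. In 6 of the 7 core beta genes normal chow library 2 was the lowest of its chow. Without that library the class median was -0.49, with Psmb3 at -0.75 (edgeR adjusted p = 0.0379) and Psmb5 at -0.66 (edgeR adjusted p = 0.0390).

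**Figure D2:**
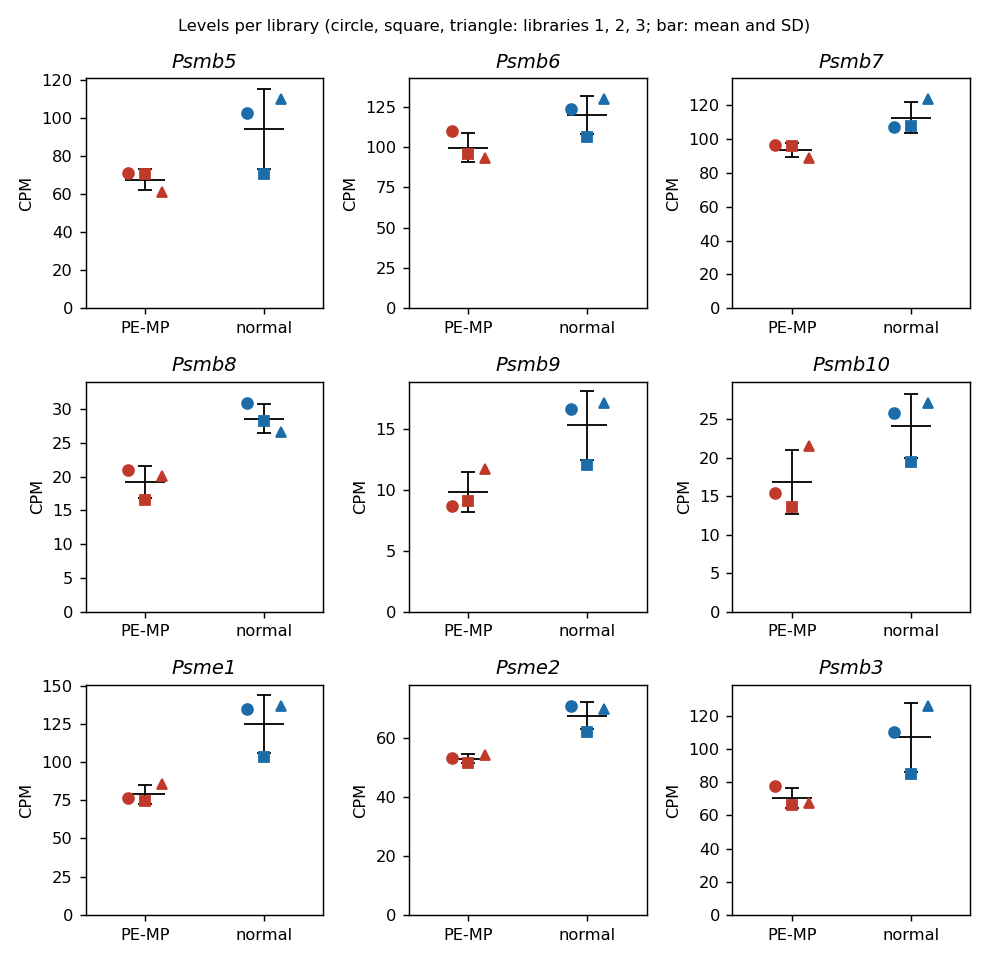
Levels in CPM scaled by TMM factors of the 3 constitutive catalytic subunits, their inducible counterparts, the activator subunits Psme1 and Psme2, and Psmb3, for PE-MP chow (red) and normal chow (blue), with 3 libraries each; bars give mean and SD. The square on the normal chow side, library 2, is the lowest of its chow in 7 of the 9 panels; for Psme1, Psme2, Psmb3, Psmb7, Psmb8 and Psmb9 the chows do not overlap, and without scaling factors this holds for Psmb8 alone.

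The alpha subunits form the outer rings that gate the entrance. Of 7 genes, 6 had a negative log2 fold change and 1 a positive one, and without scaling factors 1 was negative. Psma4 stood apart with 45.4, 57.2 and 62.5 CPM in PE-MP libraries 1, 2 and 3, against 63.5, 91.7 and 104 CPM in normal chow libraries 1, 2 and 3 (log2 fold change -0.65 ± 0.21, SE; edgeR adjusted p = 0.202). The chows did not overlap, but PE-MP library 3 lay just under normal chow library 1, and both chows were widely spread. Psma7 had 99.4, 93.5 and 90.9 CPM in the PE-MP libraries, against 115, 103 and 126 CPM in the normal chow libraries (log2 fold change -0.28 ± 0.12, SE; edgeR adjusted p = 0.285), again without overlap. Psma3 was the alpha gene with a positive value, at 70.5, 98.3 and 93.6 CPM in the PE-MP libraries, against 96.2, 64.4 and 86.7 CPM in the normal chow libraries (log2 fold change 0.086 ± 0.20, SE; edgeR adjusted p = 0.846). Its lowest values were PE-MP library 1 and normal chow library 2, and the chows overlapped fully. Psma5 (-0.23) showed no overlap, and Psma1, Psma2 and Psma6 lay between -0.17 and -0.11 with overlap.

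The ATPases Psmc1 to Psmc6 form the ring that unfolds substrates and opens the gate of the core. Their log2 fold changes ran from -0.14 to 0.46, with 4 negative and 2 positive. Separate chows were seen for 0 of 6, against 11.8% of all tested genes with PE-MP chow lower and 14.2% with it higher. Without scaling factors 0 were negative. Psmc1 had 129.6, 132 and 109.8 CPM in PE-MP libraries 1, 2 and 3, against 137, 120.3 and 152 CPM in normal chow libraries 1, 2 and 3 (log2 fold change -0.14 ± 0.14, SE; edgeR adjusted p = 0.618). Psmc3 had 114, 115 and 92.9 CPM in the PE-MP libraries, against 123, 96.7 and 123 CPM in the normal chow libraries (log2 fold change -0.088 ± 0.15, SE; edgeR adjusted p = 0.785). For both genes the low libraries were PE-MP library 3 and normal chow library 2. Psmc2 averaged 76.0 ± 3.94 CPM under PE-MP chow and 74.7 ± 9.23 CPM under normal chow (SD, n = 3 each), with a 95% interval of the log2 fold change from -0.28 to 0.33. Psmc6 had a positive and uneven value, at 57.7, 64.7 and 71.1 CPM in the PE-MP libraries, against 28.0, 63.6 and 48.7 CPM in the normal chow libraries (log2 fold change 0.46 ± 0.29, SE; edgeR adjusted p = 0.435). Normal chow library 1 was far below the rest, normal chow library 3 was also below all PE-MP libraries, and normal chow library 2 lay within their range.

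The non-ATPase subunits hold the ubiquitin receptors, the deubiquitinase and the scaffold of the regulatory particle. Of 11 genes, 8 were negative and 3 positive, and without scaling factors 3 were negative. For 3 genes (27.3%) the chows were separate with PE-MP chow lower, against 11.8% of all tested genes. They were separate with PE-MP chow higher for 0, against 14.2%. Psmd11, which clamps the regulatory particle to the core, had 116, 102 and 93.2 CPM in PE-MP libraries 1, 2 and 3, against 143, 117 and 147 CPM in normal chow libraries 1, 2 and 3 (log2 fold change -0.39 ± 0.14, SE; edgeR adjusted p = 0.235). Psmd8, a lid subunit, had 100.5, 98.2 and 90.9 CPM in the PE-MP libraries, against 128, 101 and 129 CPM in the normal chow libraries (log2 fold change -0.31 ± 0.13, SE; edgeR adjusted p = 0.291). In both genes PE-MP library 1 lay just under normal chow library 2, so the chows were apart by a narrow margin. The scaffold gene Psmd1 (-0.29) also showed no overlap. On the positive side, the lid subunit Psmd6 had 57.5, 56.8 and 52.2 CPM in the PE-MP libraries, against 52.9, 45.1 and 53.7 CPM in the normal chow libraries (log2 fold change 0.13 ± 0.12, SE; edgeR adjusted p = 0.577). Psmd14, the deubiquitinase that removes ubiquitin chains from substrates, had 34.1, 39.2 and 35.2 CPM in the PE-MP libraries, against 29.6, 33.3 and 37.6 CPM in the normal chow libraries (log2 fold change 0.11 ± 0.13, SE; edgeR adjusted p = 0.690). Both overlapped between chows. Psmd4, a ubiquitin receptor singled out here after its values were seen, had 126, 103 and 50.3 CPM in the PE-MP libraries, against 126, 93.3 and 119 CPM in the normal chow libraries. PE-MP library 3 alone was low, and its interval was wide (-1.07 to 0.52 on the log2 scale). The remaining genes were Psmd2 (-0.091), Psmd3 (-0.00063), Psmd7 (-0.30), Psmd12 (0.058) and Psmd13 (-0.14), all with overlap.

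Ratios between classes within a library do not depend on the scaling between libraries. Levels were first divided by transcript length, as scaled CPM per kilobase of transcript (RPKM), and averaged over the genes of a class. The ratio of core beta to ATPase genes was 1.57, 1.48 and 1.63 in PE-MP libraries 1, 2 and 3, against 2.01, 1.90 and 2.04 in normal chow libraries 1, 2 and 3, with means of 1.56 ± 0.0715 under PE-MP chow and 1.99 ± 0.0725 under normal chow (SD, n = 3 each). The chows did not overlap, and the gap between them was larger than the spread within either. The core beta transcripts are shorter than the ATPase transcripts, with median lengths of 899 and 1613.5 bases. Fold changes ran with length over all genes, and ratios within a library do not take that trend out. The ratio of core alpha to ATPase genes averaged 1.05 ± 0.0968 under PE-MP chow and 1.21 ± 0.0821 under normal chow (SD, n = 3 each), and PE-MP library 3 lay above normal chow library 1. The ratio of non-ATPase to ATPase genes was 0.850, 0.820 and 0.775 in PE-MP libraries 1, 2 and 3, against 0.926, 0.888 and 0.878 in normal chow libraries 1, 2 and 3, with separate chows and means of 0.815 ± 0.0380 under PE-MP chow and 0.897 ± 0.0250 under normal chow (SD, n = 3 each). The ratio of core beta to core alpha genes was 1.62, 1.46 and 1.41 in PE-MP libraries 1, 2 and 3, against 1.79, 1.48 and 1.67 in normal chow libraries 1, 2 and 3, with overlap. These ratios are given without a test because the classes were compared with their fold changes in view. For Psmc6 against the mean of the other 5 ATPases the ratio was 0.417, 0.483 and 0.616 in PE-MP libraries 1, 2 and 3, against 0.195, 0.554 and 0.324 in normal chow libraries 1, 2 and 3, lowest in normal chow libraries 1 and 3.

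**Figure D3:**
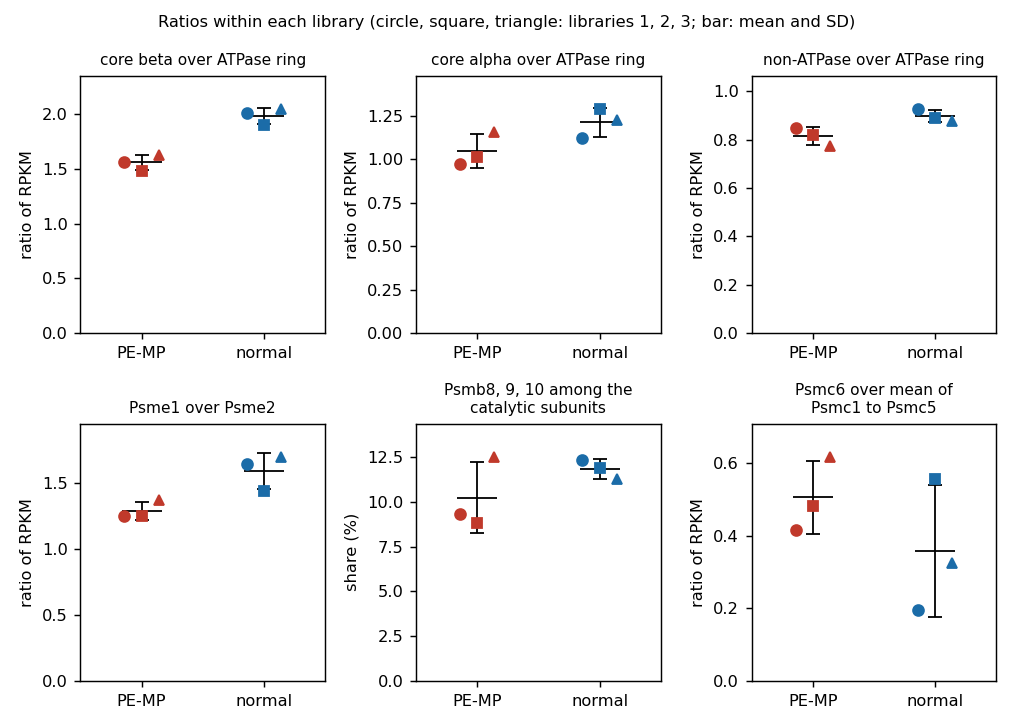
Ratios of RPKM between proteasome classes or genes within each library, and the share of Psmb8, Psmb9 and Psmb10 in the summed RPKM of the 6 catalytic subunits, for PE-MP chow (red) and normal chow (blue), 3 libraries each, with mean and SD. Core beta over ATPase, non-ATPase over ATPase and Psme1 over Psme2 separate the chows, with lower values under PE-MP chow; the share of inducible catalytic subunits does not.

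The 5 immunoproteasome genes had the most negative median of all classes, and all 5 were negative, also without scaling factors (median -0.27). In 4 of 5 (80%) the chows did not overlap, with PE-MP chow lower, against 11.8% of all tested genes. Psmb8, the inducible counterpart of Psmb5, had 21.0, 16.6 and 20.1 CPM in PE-MP libraries 1, 2 and 3, against 31.0, 28.3 and 26.6 CPM in normal chow libraries 1, 2 and 3 (log2 fold change -0.57 ± 0.14, SE; edgeR adjusted p = 0.142). Every PE-MP library lay below every normal chow library. Of its exon bases in GENCODE M21, 14.7% overlap another gene on the opposite strand. Psmb9, the counterpart of Psmb6, had 8.65, 9.05 and 11.7 CPM in the PE-MP libraries, against 16.7, 12.0 and 17.2 CPM in the normal chow libraries (log2 fold change -0.64 ± 0.20, SE; edgeR adjusted p = 0.189). PE-MP library 3 and normal chow library 2 were close to each other, and the rest were well apart. Psmb10, the counterpart of Psmb7, had 15.4, 13.5 and 21.5 CPM in the PE-MP libraries, against 25.8, 19.4 and 27.1 CPM in the normal chow libraries (log2 fold change -0.52 ± 0.22, SE; edgeR adjusted p = 0.279). PE-MP library 3 exceeded normal chow library 2, so this was the 1 gene of the 5 whose chows overlapped.

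Psme1 and Psme2 code for the subunits of the ring that caps the core in place of the regulatory particle. Psme1 had the most negative value of all 48 tested members, at 76.7, 74.2 and 85.8 CPM in PE-MP libraries 1, 2 and 3, against 134, 103 and 137 CPM in normal chow libraries 1, 2 and 3 (log2 fold change -0.66 ± 0.15, SE; edgeR adjusted p = 0.135). The PE-MP mean was 0.633 times the normal chow level, and the gap between the chows was wider than the range of the PE-MP libraries. Psme2 had 53.2, 51.4 and 54.2 CPM in the PE-MP libraries, against 70.8, 62.1 and 69.7 CPM in the normal chow libraries (log2 fold change -0.35 ± 0.11, SE; edgeR adjusted p = 0.184). Its PE-MP libraries lay close together, and its chows were also apart. The per-length ratio of Psme1 to Psme2 was 1.25, 1.25 and 1.37 in PE-MP libraries 1, 2 and 3, against 1.64, 1.44 and 1.69 in normal chow libraries 1, 2 and 3, lower in all PE-MP libraries.

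The inducible catalytic subunits were also set against the constitutive ones. By length, Psmb8, Psmb9 and Psmb10 made up 9.35%, 8.83% and 12.5% of the RPKM of the 6 catalytic subunits in PE-MP libraries 1, 2 and 3, against 12.4%, 11.9% and 11.3% in normal chow libraries 1, 2 and 3. PE-MP library 3 had the highest share of all 6 libraries and PE-MP library 2 the lowest. The pairs gave no separation either. The ratio of Psmb8 to Psmb5 averaged 0.158 ± 0.0261 under PE-MP chow and 0.174 ± 0.0445 under normal chow (SD, n = 3 each). For Psmb9 to Psmb6 the means were 0.0588 ± 0.0141 under PE-MP chow and 0.0748 ± 0.00695 under normal chow (SD, n = 3 each). For Psmb10 to Psmb7 they were 0.160 ± 0.0478 under PE-MP chow and 0.189 ± 0.0272 under normal chow (SD, n = 3 each).

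In bulk liver RNA, fewer cells of a type and less RNA per cell cannot be told apart, and leukocytes are known to carry immunoproteasome transcripts. The 3 general leukocyte markers Ptprc, Coro1a and Laptm5 summed to 23.1 to 29.9 CPM under PE-MP chow and 22.4 to 36.8 CPM under normal chow, with overlap. Of the 3, Coro1a (log2 fold change -0.75) was lower in all PE-MP libraries on the scaled levels and overlapped without scaling factors. Ptprc (0.081) and Laptm5 (0.11) were positive, both with overlap on the scaled levels. The 10 T and NK cell markers summed to 4.20 to 7.24 CPM under PE-MP chow and 7.04 to 10.3 CPM under normal chow, with overlap. Of these 10, 9 were negative, against 48.3% of all tested genes. The other, Klrb1c (log2 fold change 0.89), was higher in all PE-MP libraries on the scaled levels. B and plasma cell markers, 6 of 6 negative, summed to 6.43 to 10.3 CPM under PE-MP chow and 19.3 to 58.6 CPM under normal chow, without overlap. Kupffer cell markers, 7 of 7 positive, summed to 135 to 226 CPM under PE-MP chow and 95.8 to 132 CPM under normal chow, again without overlap. The 4 dendritic cell markers overlapped, at 4.42 to 6.33 CPM under PE-MP chow and 3.70 to 6.61 CPM under normal chow. None of the markers in these 5 lists was at 0 in all libraries, and their part in the immunoproteasome result was not tested. The 4 adipocyte markers, of which 2 passed the filter, summed to 0.423 to 1.52 CPM under PE-MP chow and 2.40 to 12.8 CPM under normal chow. Endothelial cell markers summed to 86.3 to 124 CPM under PE-MP chow and 69.5 to 86.2 CPM under normal chow, without overlap. Stellate cell markers summed to 169 to 322 CPM under PE-MP chow and 284 to 324 CPM under normal chow, and cholangiocyte markers to 3.10 to 6.01 CPM under PE-MP chow and 4.64 to 8.22 CPM under normal chow, both with overlap.

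Genes that use the peptides or answer the same signals were listed with the immunoproteasome. Of 10 genes of MHC class I peptide supply, 8 were negative (median on the log2 scale -0.28), and 0 passed the adjusted threshold. Of all tested genes 48.3% were negative with scaling factors and 23.6% without them. The MHC class I light chain B2m had 1270.0, 1027 and 1183 CPM in PE-MP libraries 1, 2 and 3, against 1891, 1704 and 1942 CPM in normal chow libraries 1, 2 and 3 (log2 fold change -0.67 ± 0.13, SE; edgeR adjusted p = 0.128). The heavy chain gene H2-K1 stood at -0.51 on the log2 scale and the loading factor Tapbp at -0.52, both without overlap on the scaled levels. Without scaling factors both overlapped, while B2m did not. The folding factors Calr (0.048) and Pdia3 (0.033) were the 2 positive members. In RefSeq, Tap1 lies between Psmb9 and Psmb8 and Tap2 is the neighbour of Psmb8 on the other side. Their log2 fold changes were -0.34 for Tap1, with overlap, and -0.23 for Tap2. The chows did not overlap for Tap2 on the scaled levels, and did without scaling factors. In GENCODE M21, 5.79% of the exon bases of Psmb9 overlap Tap1 on the opposite strand. Among 9 tested genes of interferon signalling to these promoters, 5 were negative and 4 positive, with a median of -0.022, and Ifng did not pass the filter. Nlrc5, the activator of MHC class I genes, had a positive value, at 19.2, 17.9 and 23.3 CPM in the PE-MP libraries, against 11.2, 11.5 and 9.33 CPM in the normal chow libraries (log2 fold change 0.92 ± 0.16, SE; edgeR adjusted p = 0.124). Its chows did not overlap. On the log2 scale Irf1 stood at -0.31 and Stat2 at 0.35, both with overlap.

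Promoter windows of 300 bases, 250 before and 50 after the start site, were at hand for 41 member symbols from RefSeq on build GRCm38.p6. They are shown for Psme1 and Psmb8, the members called by DESeq2, and for Psmb3 and Psmb5, which had the most negative log2 fold changes among the core beta genes. The windows were searched on both strands for 3 motif cores, with N for any base, and each window shown held 1 match. The windows of Psma4 (log2 fold change -0.65), Psmb9 (-0.64), Psmb10 (-0.52) and Psme2 (-0.35) held none. Of the 7 core beta genes, 4 had a window. The interferon-stimulated core was in 1 of the 5 immunoproteasome genes. The cores were TGACNNNGC of the antioxidant response element, which NRF1 and NRF2 bind, GAAA, any 2 bases and GAAA again, of the interferon-stimulated response element, and TTCNNNGAA of the gamma-activated site. Capitals mark the matches.
Psme1 (chr14:55578244-55578543, plus strand): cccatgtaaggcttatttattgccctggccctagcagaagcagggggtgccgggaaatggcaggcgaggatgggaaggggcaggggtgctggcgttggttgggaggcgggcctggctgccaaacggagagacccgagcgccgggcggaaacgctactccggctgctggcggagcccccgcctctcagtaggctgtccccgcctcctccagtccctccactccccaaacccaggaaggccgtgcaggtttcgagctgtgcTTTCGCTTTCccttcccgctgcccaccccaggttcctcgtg
Psmb8 (chr17:34197945-34198244, plus strand): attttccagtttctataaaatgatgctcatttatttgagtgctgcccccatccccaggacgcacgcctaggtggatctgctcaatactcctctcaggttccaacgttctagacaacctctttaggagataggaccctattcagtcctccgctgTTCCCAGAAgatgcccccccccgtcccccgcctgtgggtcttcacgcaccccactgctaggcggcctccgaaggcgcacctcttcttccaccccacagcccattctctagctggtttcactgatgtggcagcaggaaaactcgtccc
Psmb3 (chr11:97703184-97703483, plus strand): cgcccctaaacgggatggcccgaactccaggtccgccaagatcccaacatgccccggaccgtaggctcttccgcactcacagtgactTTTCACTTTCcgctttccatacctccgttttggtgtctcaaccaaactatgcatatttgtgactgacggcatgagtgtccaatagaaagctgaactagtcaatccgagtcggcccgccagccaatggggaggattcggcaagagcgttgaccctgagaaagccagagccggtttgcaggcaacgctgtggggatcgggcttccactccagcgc
Psmb5 (chr14:54617946-54618245, minus strand): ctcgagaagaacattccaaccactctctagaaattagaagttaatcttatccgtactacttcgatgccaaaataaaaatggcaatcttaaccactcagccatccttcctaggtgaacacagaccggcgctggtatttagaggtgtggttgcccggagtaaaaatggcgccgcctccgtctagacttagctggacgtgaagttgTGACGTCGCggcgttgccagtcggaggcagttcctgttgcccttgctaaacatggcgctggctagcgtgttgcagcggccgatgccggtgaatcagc
In Psme1 the match is an interferon-stimulated response element core on the minus strand of the window, beginning 9 bases after the start site. Psmb8 holds a gamma-activated site core 97 bases before the start, Psmb3 an interferon-stimulated core 163 bases before it, and Psmb5 an antioxidant core 47 bases before it.

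Over all members with a window, 6 of 41 (14.6%) held the antioxidant core, which were Psmb5, Psmb6, Psmc6, Psmd9, Psmd12 and Psme4, against 14% of all 27025 genes with a window. The interferon-stimulated core was in 5 of 41 (12.2%), which were Psmb3, Psmd4, Psmd9, Psme1 and Psmg4, against 3.99% of all genes. The gamma-activated core was in 3 of 41 (7.32%), which were Psmb8, Psmd2 and Psmg1, against 9.55% of all genes. The genes with the antioxidant core included members at both ends, such as Psmb5 (-0.48) and Psmc6 (0.46). Of the 5 genes with the interferon-stimulated core, Psme1 (-0.66), Psmb3 (-0.60), Psmg4 (-0.56) and Psmd4 (-0.28) were negative and Psmd9 stood at 0.0092. That is near the share of negative values over all tested members, 81.2%. Psmd4 was low in PE-MP library 3 alone. A match is a description of these letters in this window.

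Assembly factors hold the growing rings together and leave the finished particle. Of 7 tested genes, 5 had a negative and 2 a positive log2 fold change, and without scaling factors 1 was negative. For 2 genes (28.6%) the chows were separate with PE-MP chow lower, against 11.8% of all tested genes. Psmg4, which pairs with Psmg3 in a chaperone of the alpha ring, had 3.79, 4.64 and 3.71 CPM in PE-MP libraries 1, 2 and 3, against 5.25, 5.61 and 7.07 CPM in normal chow libraries 1, 2 and 3 (log2 fold change -0.56 ± 0.19, SE; edgeR adjusted p = 0.211). The transcript is the shortest among the tested members, at 555 bases. Psmg2, the partner of Psmg1, had 7.22, 8.38 and 8.41 CPM in the PE-MP libraries, against 9.01, 8.70 and 9.59 CPM in the normal chow libraries (log2 fold change -0.18 ± 0.14, SE; edgeR adjusted p = 0.514). The chows were apart by a small margin. Psmg1 (-0.15) and Psmg3 (-0.17) overlapped. The chaperones of the ATPase ring, Psmd5, Psmd9 and Psmd10, were nearer to 0. Psmd5 averaged 30.3 ± 2.40 CPM under PE-MP chow and 33.2 ± 2.45 CPM under normal chow (SD, n = 3 each), Psmd9 averaged 43.6 ± 5.75 CPM under PE-MP chow and 43.3 ± 6.46 CPM under normal chow (SD, n = 3 each) and Psmd10 averaged 9.11 ± 1.06 CPM under PE-MP chow and 8.39 ± 1.18 CPM under normal chow (SD, n = 3 each). Their log2 fold changes were -0.13, 0.0092 and 0.12, all with overlap. In GENCODE M21, 25.5% of the exon bases of Psmd9 overlap a gene on the opposite strand, so its value is uncertain.

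The other activators and the inhibitor did not separate the chows. Psme3, which forms the nuclear activator ring, had 55.1, 51.7 and 45.5 CPM in PE-MP libraries 1, 2 and 3, against 63.4, 49.3 and 61.1 CPM in normal chow libraries 1, 2 and 3 (log2 fold change -0.19 ± 0.14, SE; edgeR adjusted p = 0.511). Psme4, a large single-chain activator, had 89.6, 103 and 95.9 CPM in the PE-MP libraries, against 62.9, 96.7 and 79.3 CPM in the normal chow libraries (log2 fold change 0.27 ± 0.17, SE; edgeR adjusted p = 0.442). Normal chow library 2 lay inside the PE-MP range for Psme4, and libraries 1 and 3 of that chow were below it. Psmf1, known as an inhibitor of the core in vitro, had 26.2, 28.3 and 25.0 CPM in the PE-MP libraries, against 38.3, 25.3 and 36.8 CPM in the normal chow libraries (log2 fold change -0.34 ± 0.18, SE; edgeR adjusted p = 0.366). As for Psmb5, normal chow library 2 sat at the PE-MP level. The per-length ratio of Psme1 to Psme4 averaged 4.81 ± 0.526 under PE-MP chow and 9.58 ± 3.15 under normal chow (SD, n = 3 each), and that of Psme1 to Psme3 was 3.33, 3.44 and 4.51 in PE-MP libraries 1, 2 and 3, against 5.08, 5.01 and 5.36 in normal chow libraries 1, 2 and 3. Both ratios were lower in all PE-MP libraries. Psme1 had the most negative log2 fold change of all tested members, so low ratios follow from that value. Its transcript, of 1112 bases, is also shorter than those of Psme4 (6491) and Psme3 (2664). Ratios within a library do not take out the trend of fold changes with length.

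The 3 genes put in the tissue-restricted class, where Psme2b stands as a paralogue with no organ named, were at 0 or near the floor. Psma8, the testis form of an alpha subunit, had 0.518, 0.281 and 0.325 CPM in PE-MP libraries 1, 2 and 3, against 0.171, 0.649 and 0.760 CPM in normal chow libraries 1, 2 and 3. Psme2b, a paralogue of Psme2, had 0.899, 0.659 and 1.01 CPM in the PE-MP libraries, against 1.04, 1.55 and 1.17 CPM in the normal chow libraries (log2 fold change -0.55 ± 0.28, SE; edgeR adjusted p = 0.351). How reads shared by such copies were counted is not stated in the sources at hand, so its value is uncertain. Psmb11, the thymus form of the chymotrypsin-like subunit, had 0 counts in each library. The 5 pseudogene rows named after proteasome genes had at most 58 counts in any library.

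Levels per length showed the make-up of the set in this liver. The core beta genes had the highest class median of RPKM, at 80.7 under PE-MP chow and 105 under normal chow, and ranged between 50.8 (Psmb2) and 125 (Psmb6) under PE-MP chow. Under normal chow they ranged between 65.5 and 150.3, for the same 2 genes. The ATPases followed under PE-MP chow, at 51.7 RPKM, and stood at 53.6 under normal chow. The core alpha median was 47.2 RPKM under PE-MP chow and 56.4 under normal chow. These 2 classes stood in the opposite order under each chow, but their ranges of single genes overlap widely, and the levels rest on 1 transcript per gene. For example, the transcript taken for Psma2 is 2911 bases long, and Psma2 had the lowest RPKM of the alpha genes. The non-ATPase median was 40.0 RPKM under PE-MP chow and 47.7 under normal chow, with Psmd4 the highest in both. Assembly factors were lower, at medians of 7.56 RPKM under PE-MP chow and 10.8 RPKM under normal chow. Within the immunoproteasome, Psme1 had 71.0 ± 5.46 RPKM under PE-MP chow and 112 ± 16.9 under normal chow, while Psmb9 had 7.25 ± 1.23 under PE-MP chow and 11.3 ± 2.08 under normal chow (SD, n = 3 each).

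Fold changes ran with transcript length and GC content, among all genes and among the members. Over 46 members, leaving out the tissue-restricted genes, Spearman's rho between log2 fold change and length was 0.45, and that with GC content was -0.48. Over all 17140 tested genes with a length they were 0.25 and -0.20. These are correlations across genes of the same 6 libraries, and genes are not independent replicates. For transcripts of 700 to 1000 bases the median log2 fold change was -0.20 over all 1064 such genes and -0.35 over the 7 members among them. From 1000 to 1500 bases the medians were -0.12 over 1832 genes and -0.21 over 16 members. The chows did not overlap, with PE-MP chow lower, for 18.6% of those 1832 genes and for 7 of the 16 members. From 1500 to 2000 bases the medians were -0.052 over 1966 genes and -0.14 over 10 members. With a smooth trend on length and GC content taken out over all genes, the class medians were -0.44 for the immunoproteasome, -0.20 for core beta, -0.14 for core alpha, -0.17 for the other activators and inhibitor, -0.047 for non-ATPase, 0.020 for assembly factor and 0.065 for ATPase genes. All 7 core beta, all 7 core alpha and all 5 immunoproteasome genes were then negative, with Psmb6 close to 0 at -0.017. So were 8 of 11 non-ATPase genes, 2 of the 3 other activators and inhibitor, 3 of 7 assembly factors and 1 of 6 ATPases. Over all 17140 genes in this setting, 8233 were negative.

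**Figure D4:**
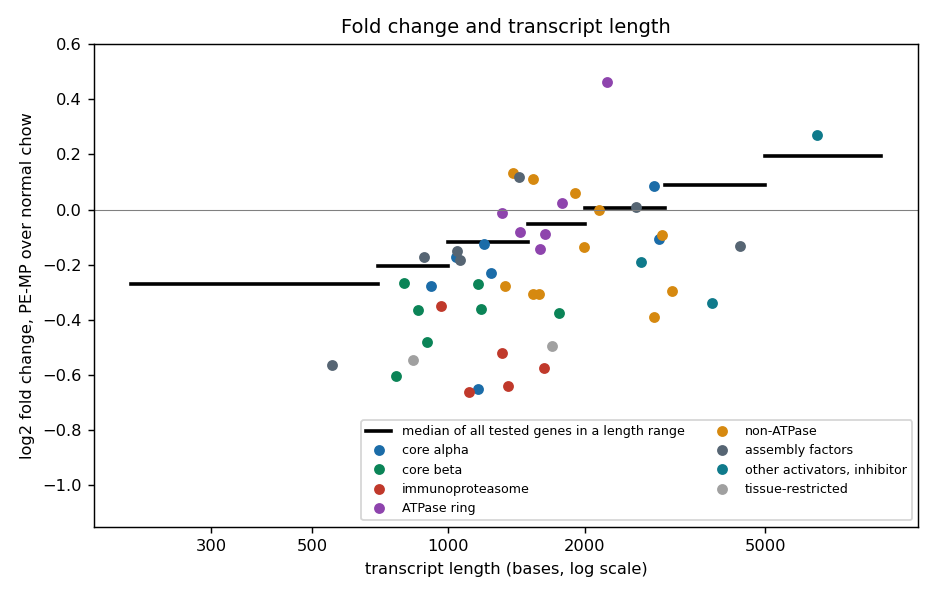
Log2 fold change of each tested proteasome gene, PE-MP chow over normal chow, against transcript length in bases on a log scale, coloured by class; black bars give the median of all tested genes in 7 length ranges, the last of which has no upper end. The median of all genes climbs from -0.27 for the shortest range to 0.19 for the longest, and all 5 immunoproteasome genes lie below the bar of their range.

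The libraries differed within a chow in a way shared by many members. Normal chow library 2 was the lowest of its 3 for 36 of the 48 tested members and the highest for 4, while normal chow library 3 was the highest for 35. Among the PE-MP libraries, library 3 was the lowest for 26 and library 1 the highest for 26. By share of total counts, with no scaling, the 50 rows took 0.338%, 0.337% and 0.336% in PE-MP libraries 1, 2 and 3, against 0.331%, 0.273% and 0.346% in normal chow libraries 1, 2 and 3. The PE-MP shares were nearly equal, and the normal chow shares spread on both sides of them. Normal chow library 2 was the lowest in 10 of 11 non-ATPase and 5 of 6 ATPase genes.

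**Figure D5:**
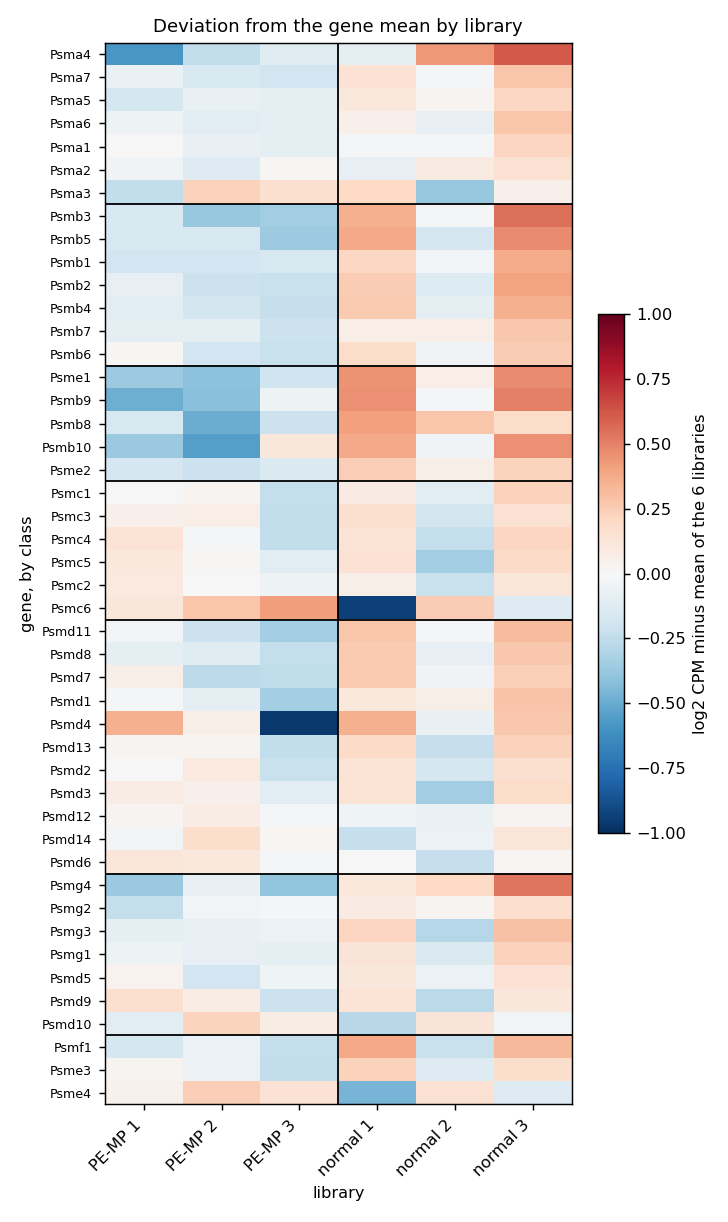
Deviation of log2 CPM from the mean of the 6 libraries for 46 proteasome genes in 7 classes (rows) and the 3 PE-MP and 3 normal chow libraries (columns); red is above and blue below the gene's mean. With CPM scaled by TMM factors, core beta and immunoproteasome genes are mostly blue in the PE-MP columns (without scaling, Psmb6 and Psmb7 turn). Normal chow library 2 is the lowest of its chow in most rows, and blue in rows such as Psmc5 and Psmd3. Psmc6 in normal chow library 1 and Psmd4 in PE-MP library 3 stand out as single deep blue cells.

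The 3 lists of other genes of the pathway place these members in context, and 0 genes of any list passed the adjusted threshold. Signs are given with scaling factors, where 48.3% of all tested genes were negative, against 23.6% without them. Among 7 tested proteasome components without a Psm symbol, 5 were negative (median on the log2 scale -0.17). Sem1, the smallest lid subunit, had 32.5, 33.9 and 37.0 CPM in PE-MP libraries 1, 2 and 3, against 42.2, 45.4 and 47.1 CPM in normal chow libraries 1, 2 and 3 (log2 fold change -0.38 ± 0.11, SE; edgeR adjusted p = 0.177). Pomp, the maturation factor of the beta rings, had 66.3, 69.3 and 69.2 CPM in the PE-MP libraries, against 88.7, 72.3 and 99.8 CPM in the normal chow libraries (log2 fold change -0.35 ± 0.14, SE; edgeR adjusted p = 0.263). Neither overlapped between chows on the scaled levels, and both did without scaling factors. The deubiquitinases Uchl5 (0.22) and Usp14 (0.043) were the 2 positive genes. Of 10 genes of transcriptional control, 7 were positive, with a median of 0.12. Nfe2l1, which codes for NRF1, the activator of proteasome genes, had 151, 129 and 124 CPM in the PE-MP libraries, against 151, 138 and 129 CPM in the normal chow libraries (log2 fold change -0.046 ± 0.13, SE; edgeR adjusted p = 0.877), with overlap. Nfe2l2, which codes for NRF2, had a log2 fold change of 0.25, and Ddi2, the protease that releases NRF1, one of 0.16 with separate chows. On the negative side were Mafk (-0.17) and Keap1 (-0.11). Of 15 ubiquitin genes and shuttle factors, 12 were negative, with a median of -0.077. Ubb, a polyubiquitin gene, stood at -0.31 on the log2 scale, without overlap on the scaled levels and with overlap without scaling factors. Bag6 and Uba6 stood on the positive side at 1.32 and 0.097, with overlap. Bag6 had 4.35, 14.4 and 3.28 CPM in the PE-MP libraries, against 5.23, 1.81 and 1.80 CPM in the normal chow libraries. Its PE-MP library 2 was far above all others.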

How the data were processed

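Liver total RNA was poly(A) selected and made into strand-keeping libraries, per the labels' protocols. The authors deposited gene counts as whole numbers, without normalisation. The submitters' processing notes name bcl2fastq and build GRCm39; for the aligner, the counting program, the annotation and the strand option, the entry is: not given in the sources used here. The whole-series table equalled the library files on all 56674 rows.

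Groups and replicate numbers came from the labels. Differences were tested with edgeR 4.0.16 (R 4.3.3; quasi-likelihood F test, robust, TMM factors, default expression filter), two-sided, with Benjamini-Hochberg adjustment over all 18043 tested genes and a threshold of 0.05. Alternatives used DESeq2 1.42.0, limma-voom (limma 3.58.1), RLE, upper-quartile or no factors, factors without mitochondrial genes and Rn18s-rs5, no filter, a filter at 1 CPM in every library of either chow, each library left out, a block for the replicate number, a threshold of 0.1, and a length and GC trend taken out (splines with 5 degrees of freedom each). The fit without factors was chosen after seeing the data. The fits were tested on simulated counts.

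Transcript length and GC content came from the principal transcript in GENCODE M21 (build GRCm38), which gave a value for 95.0% of tested genes and all 48 tested members; promoters came from RefSeq, GRCm38.p6, and no coordinates of the count build were used. Counting error is small at these depths for genes with many counts, but not for rare rows such as Psma8, with 12 to 77 counts. PCR copies are not independent molecules. The members, classes, lists and the rule for named genes were chosen with earlier results of these data known. The rule names every member, gives library values for the catalytic and activator genes and the 2 members per class and direction with the smallest p, and up to 2 genes per direction of each further list. Psmd4, Nfe2l1, Tapbp, Tap1 and Tap2 were named outside it, and 2 genes that it names are not reported here. RefSeq proteins were planned for this rule and not used here.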

Additional observations from a re-analysis of the deposited data

How the results depend on the processing

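The edgeR count over all genes, 1 in the reported fit, was 3 with RLE factors, 10 without factors, 15 with limma-voom, 22 with the stricter filter, 23 with no filter, 53 at an adjusted p of 0.1 and 0 with the replicate number as a block; DESeq2 called 1095, and leaving out 1 library gave 1 to 1075. Proteasome members called numbered 0 in the reported fit, 2 with DESeq2, 0 to 5 with 1 library left out (5 without normal chow library 2), and 0 under every other setting with a test. The cause of these differences was not tested.

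Class medians without factors were 0.13 for core alpha, -0.067 for core beta, -0.27 for the immunoproteasome, 0.25 for ATPase, 0.16 for non-ATPase, 0.15 for assembly factors and 0.11 for the other activators and inhibitor, against an all-gene median of 0.32. Relative to that median, core beta was at -0.39 without factors and -0.38 with them. Factors shift the log2 fold changes of all genes nearly alike, so these 2 values had to be close and give no further support. The core beta median ranged from -0.49 to -0.27 with 1 library left out and stood at -0.20 once the trend on length and GC content was removed. 

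Of the 48 tested members, none of which passed the test in the reported fit, 21 turned positive without factors. Once the trend was removed, 6 turned positive and 2 negative, and under each other setting 0 to 4 members turned. Among the members picked by the rule for library values, those that turned without factors stood at 0.031 for Psmb6, 0.032 for Psmb7, 0.11 for Psme3, 0.023 for Psma7, 0.15 for Psmc1, 0.21 for Psmc3 and 0.12 for Psmg2. With RLE factors Psmd9 was at -0.0042. With 1 library left out, Psmc2 ranged from -0.077 to 0.093, Psma3 from -0.068 to 0.23 and Psmd9 from -0.11 to 0.11. With the trend removed, Psma3 of these was at -0.11 and Psmc3 at 0.048.

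Libraries with the same number correlated in their deviations from the chow means by 0.050, 0.085 and 0.18 for numbers 1, 2 and 3, so the numbers were not taken to pair the libraries; with this block 0 members passed. A p that misses the threshold does not show that levels were equal.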
